A study of Mus musculus with 7 samples.

Results

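Genes for 10 secreted proteins of the acute phase and of antimicrobial defence were examined in RNA-seq of subcutaneous mouse pancreatic ductal adenocarcinoma (PDA) tumors. They are *Lcn2*, *Saa1*, *Saa2*, *Saa3*, *Hp*, *Slpi*, *Reg3b*, *Reg3g*, *Orm1* and *Pglyrp1*, taken by symbol from a table of 38026 genes, and all 10 were found. The tumors were harvested 2 weeks after PDA cells of the 1242 line were inoculated into C57BL/6 mice, which were bought at 6 weeks of age and housed for 2 weeks. The line came from a tumor of a genetically engineered mouse whose alleles include Pdx1-Cre and LSL-Trp53 R172H/+, and in which Cre acts in cells of the pancreatic lineage. Both groups carried lentiCRISPR-v2 with Cas9. In 4 control tumors the guide was scrambled (sgScramble, replicates 1 to 4), and in 3 tumors it was directed against *Krt19* (sgKrt19, replicates 5, 6 and 8). The study made polyclonal edited lines and single-cell clones, and 3 guides against *Krt19*, and the labels do not say which of these the sequenced tumors carried. The comparison asks how the expression of these host-defence genes in whole tumors differs when the epithelial keratin KRT19 has been edited in the cancer cells.

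Acute phase proteins are secreted in larger or smaller amounts during inflammation. The liver is their best known source, and the cytokines IL-6 and IL-1 induce many of them through STAT3, C/EBP and NF-kappaB transcription factors. Some are also made locally by epithelial cells, macrophages and neutrophils, where they bind iron carriers, lipid, hemoglobin or bacterial cell wall. LCN2 (lipocalin 2) takes bacterial siderophores out of reach. SAA proteins carry lipid and attract leukocytes, HP (haptoglobin) binds free hemoglobin and ORM1 (orosomucoid) is a plasma carrier protein. SLPI inhibits leukocyte serine proteases, REG3B and REG3G are C-type lectins of the gut and the stressed exocrine pancreas, and PGLYRP1 binds peptidoglycan.

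The upstream DNA of these genes is shown because it is where the inducing factors are known to act on genes of this kind. RefSeq windows of 300 bases, from 250 before to 50 after the start, were given for 8 of the 10 genes, all except *Hp* and *Orm1*. They were searched on both strands for TTGCNNAA (C/EBP), TTCNNNGAA (STAT), GAAA and GAAA with 2 bases between them (IRF) and GGGA and TTCC with 2 bases between them (NF-kappaB), which were present in 10.8%, 8.30%, 3.44% and 1.47% of 32851 windows. The C/EBP letters stood in 5 of the 8 windows, those of *Lcn2*, *Saa1*, *Saa2*, *Saa3* and *Slpi*. The STAT letters stood in *Reg3b*, the IRF letters in *Saa3* and the NF-kappaB letters in *Pglyrp1*, and *Reg3g* had no match. In *Lcn2* the match, TTGCTCAA, lies within an exon of a longer *Lcn2* transcript. A match is a run of letters and was not tested for binding.

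Upstream stretches that lie outside annotated exons are given from GRCm38.p6, 5′ to 3′ on the strand of the gene, with motif matches in capitals. The one of *Pglyrp1* lies within an intron of a longer *Pglyrp1* transcript. That of *Reg3b* lies within the annotated *Reg3b* gene, directly after an exon of a longer transcript, and the other 3 lie outside annotated genes. *Saa3* and *Saa1* stand for the expressed and the nearly silent member of one family, *Reg3b* and *Reg3g* for a pair that varied together, and *Pglyrp1* is the one window with the NF-kappaB letters.
Saa3 (chr7:46715701-46715926, minus strand): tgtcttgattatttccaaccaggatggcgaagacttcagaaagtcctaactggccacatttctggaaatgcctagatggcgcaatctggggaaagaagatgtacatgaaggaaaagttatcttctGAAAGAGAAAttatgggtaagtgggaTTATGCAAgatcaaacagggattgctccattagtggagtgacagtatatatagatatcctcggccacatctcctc
Saa1 (chr7:46742981-46743230, minus strand): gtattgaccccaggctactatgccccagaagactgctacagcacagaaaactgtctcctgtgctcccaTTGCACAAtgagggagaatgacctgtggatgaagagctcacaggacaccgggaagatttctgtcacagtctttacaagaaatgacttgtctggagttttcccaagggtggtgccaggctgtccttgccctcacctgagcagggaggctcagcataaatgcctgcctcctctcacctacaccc
Reg3b (chr6:78370707-78370860, plus strand): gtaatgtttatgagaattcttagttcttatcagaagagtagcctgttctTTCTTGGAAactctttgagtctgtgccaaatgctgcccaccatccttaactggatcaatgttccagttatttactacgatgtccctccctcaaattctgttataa
Reg3g (chr6:78468875-78469124, minus strand): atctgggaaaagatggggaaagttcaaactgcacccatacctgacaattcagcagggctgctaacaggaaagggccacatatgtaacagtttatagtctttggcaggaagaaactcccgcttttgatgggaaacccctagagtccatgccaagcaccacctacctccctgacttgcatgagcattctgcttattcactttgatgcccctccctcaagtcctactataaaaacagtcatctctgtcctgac
Pglyrp1 (chr7:18884440-18884679, plus strand): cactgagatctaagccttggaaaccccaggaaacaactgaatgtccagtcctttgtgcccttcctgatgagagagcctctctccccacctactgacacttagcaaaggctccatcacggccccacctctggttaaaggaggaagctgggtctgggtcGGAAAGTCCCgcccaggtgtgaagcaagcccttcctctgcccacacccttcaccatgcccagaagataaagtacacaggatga
The *Reg3b* and *Reg3g* upstream DNA, aligned over its whole windows before the start, was identical at 60.2% of columns, and their coding sequences were identical at 75.9%. *Saa1* and *Saa2* coding sequences were identical at 95.1%, and those of *Saa3* at 75.9% to *Saa1* and 74.9% to *Saa2*.

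Expression is given as normalized read counts (the reads of a gene over the size factor of its library), with the mean ± SD of each group (n = 4 sgScramble, n = 3 sgKrt19). Libraries held 40781199 to 44972100 reads, and 3 reads, the floor under which a gene is treated as undetected, were worth 2.74 to 3.47. *Krt19*, the targeted gene, was at 25574, 21179, 27618 and 17841 in the sgScramble tumors and at 1606, 1960 and 2470 in the sgKrt19 tumors, a log2 fold change of -3.52 (SE 0.183). Of 21322 genes tested, 34.0% passed an adjusted p of 0.05 in the limma fit, 17.9% higher and 16.0% lower in sgKrt19 tumors, and the median log2 fold change was 0.01. The epithelial markers *Krt8* and *Krt18* were abundant in every library, whereas the acinar enzymes *Cpb1*, *Cel* and *Amy2a5* lay at or under the floor in all 7. Other acinar genes were low but detected. *Cela2a*, at 25.6 ± 3.58 in controls and 29.3 ± 4.96 in sgKrt19 tumors, was above the floor in all 7 libraries. So was *Cpa1*, at 7.67 ± 3.25 and 7.80 ± 1.37, while *Ctrb1* and *Prss2* were above it in 2 libraries each. *Krt8* and *Krt18* were higher in sgKrt19 tumors (log2 fold changes 0.91 and 0.97, limma adjusted p = 0.00359 and 0.00280). Of 7 epithelial markers tested 3 were higher and 0 lower. *Krt7* and *Cldn4* had negative log2 fold changes (-1.03 and -1.23) and did not pass. Skeletal muscle markers differed between the groups, with 6 of 6 called higher and summed values of 15532 to 21923 in sgKrt19 tumors against 43.5 to 1734 in sgScramble tumors, among which replicate 3 was the highest. RNA came from whole tumors, so fewer cells of a type and less RNA per cell cannot be told apart.

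Of the 10 genes, 1 differed between the groups. *Lcn2* was lower in sgKrt19 tumors, 0 genes were higher, 7 did not pass the limma test and *Saa1* and *Saa2* were too low to be tested. The 1 call among 8 tested genes (12.5%) stands against 34.0% of all tested genes. For 0 of the 8 did the libraries of the groups lie fully apart, as they did for 41.1% of all genes tested (21.7% higher and 19.3% lower in sgKrt19 tumors). Log2 fold changes were positive for 5 genes and negative for 3, with a median of 0.92, and 2 genes, *Lcn2* and *Pglyrp1*, had an unadjusted p under 0.05. The spread within a group was wide for most of them, as the plot of values by library shows.

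**Figure D1:**
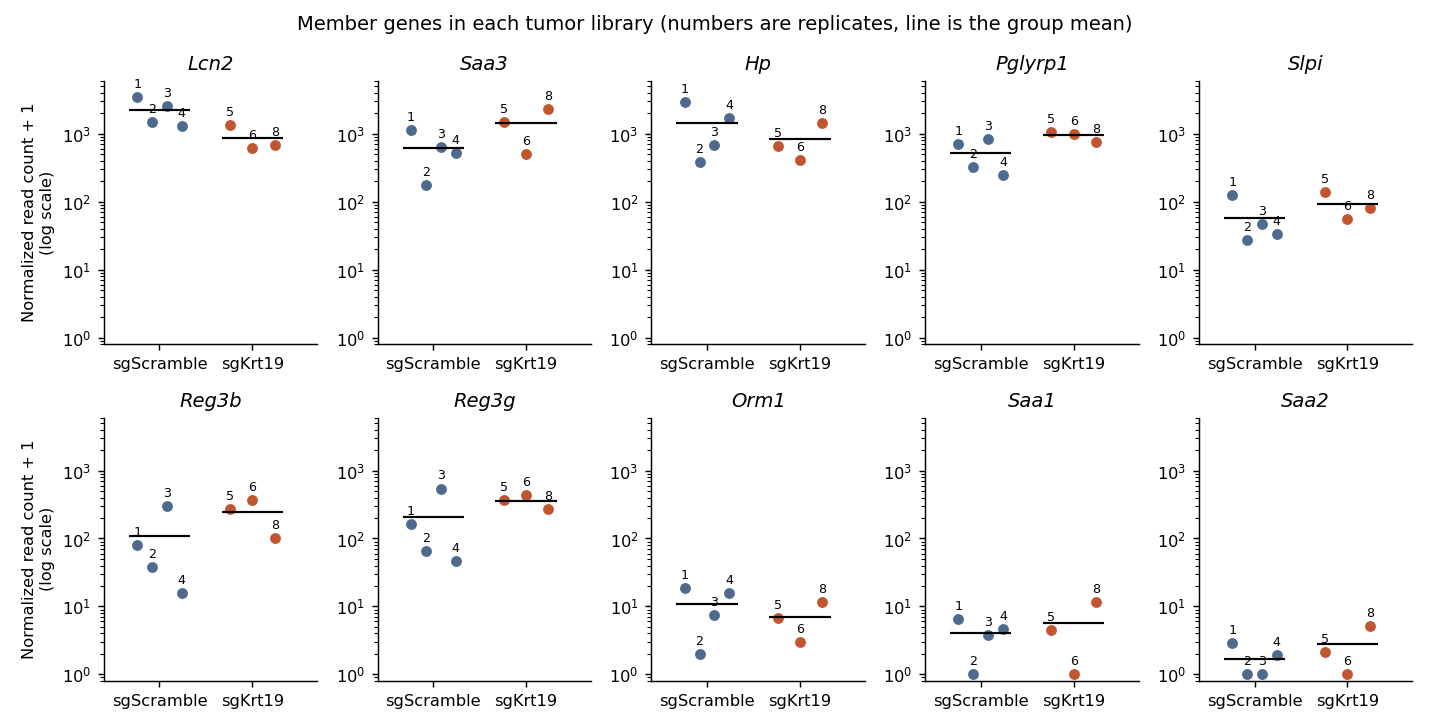
Normalized read count plus 1 (log scale) of each gene in 4 sgScramble (blue) and 3 sgKrt19 (orange) tumor libraries, with replicate numbers beside the points and a line at the group mean. The groups overlap for all 8 tested genes, and *Lcn2* has 2 sgKrt19 libraries (623 and 674) below every sgScramble library.

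The siderophore-binding protein gene *Lcn2* (chr2:32384633-32388252, minus strand) was at 3531, 1470, 2551 and 1310 in the sgScramble tumors. The sgKrt19 tumors had 1353, 623 and 674. Replicates 6 and 8 lay below every control, while sgKrt19 replicate 5 lay just above the lowest control. The means were 2215 ± 1036 and 883 ± 407, a log2 fold change of -1.30 (SE 0.360, 95% interval -2.10 to -0.50, limma adjusted p = 0.0200). Without sgKrt19 replicate 6 the log2 fold change was -1.09 (adjusted p = 0.0739) and without replicate 8 it was -1.15 (adjusted p = 0.0715), so the call rests on both libraries.

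Of 3 receptors and partners of LCN2, 1 passed the test. The megalin gene *Lrp2*, whose product takes up LCN2 and other filtered proteins, rose from 523 ± 76.2 to 2241 ± 582 (log2 fold change 2.07, adjusted p = 7.17e-05). The LCN2 receptor gene *Slc22a17* was at 110 ± 41.8 and 83.2 ± 31.6, and did not pass the test (adjusted p = 0.423). *Mmp9*, encoding the gelatinase that forms a complex with LCN2, lay between 372 and 938 in the controls and between 1058 and 1195 in the sgKrt19 tumors. Although these groups did not overlap, its log2 fold change of 0.71 missed the threshold (adjusted p = 0.0651), and passed it without control replicate 1 (0.87, adjusted p = 0.0320) or control replicate 3 (0.83, adjusted p = 0.0445).

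LCN2 is also a protein of neutrophil granules, so markers of that cell were measured beside it. Of 8 neutrophil and granule markers tested, 6 were higher in the sgKrt19 tumors and 0 lower, the opposite direction to *Lcn2*. Their summed values were 483 to 1014 in the controls and 4430 to 4902 in the sgKrt19 tumors, of which lactoferrin (*Ltf*) made up the larger share in the latter. The calprotectin gene *S100a8* had values of 65.2 to 113 in the controls and 205 to 292 in the sgKrt19 tumors. Defining granule genes were scarce: *Elane* lay at or under the floor in all 7 libraries, and *Camp*, *Ngp* and *Mpo* did not exceed 9.25. The part of these cells in the *Lcn2* result was not tested.

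*Pglyrp1* (chr7:18871331-18890459, plus strand) was at 706, 325, 837 and 243 in the sgScramble tumors and at 1074, 1009 and 761 in the sgKrt19 tumors. Control replicate 3 was above sgKrt19 replicate 8, and the other controls were below all sgKrt19 tumors. The means of 528 ± 288 and 948 ± 165 gave a log2 fold change of 1.01 (SE 0.381, 95% interval 0.16 to 1.86, unadjusted p = 0.0238), which missed the threshold after adjustment over all genes (adjusted p = 0.0636). It passed without control replicate 1 (1.21, adjusted p = 0.0375) and without control replicate 3 (1.29, adjusted p = 0.0158). *Trem1*, which encodes a receptor that binds PGLYRP1, was at 112 ± 25.9 and 147 ± 35.8 (adjusted p = 0.232).

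The lectin genes *Reg3b* (chr6:78370657-78373466, plus strand) and *Reg3g* (chr6:78466269-78468872, minus strand) varied widely among the controls. *Reg3b* was at 78.0, 37.5, 302 and 14.8 in the sgScramble tumors and at 273, 364 and 102 in the sgKrt19 tumors. The corresponding values of *Reg3g* were 163, 65.2, 543 and 46.4, and 365, 432 and 269. For both genes control replicate 3 was the highest control and lay within or above the sgKrt19 range, while the other 3 controls lay below all sgKrt19 tumors. Highest and lowest control differed 20.4-fold for *Reg3b* and 11.7-fold for *Reg3g*, against 3.57-fold and 1.61-fold in the sgKrt19 tumors.

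Neither lectin gene passed the test. The log2 fold changes were 1.81 for *Reg3b* (SE 0.828, 95% interval -0.03 to 3.65, adjusted p = 0.113) and 1.44 for *Reg3g* (SE 0.677, 95% interval -0.07 to 2.94, adjusted p = 0.123). Without control replicate 3 they were 2.58 (adjusted p = 0.00946) and 2.13 (adjusted p = 0.00361). That library had the highest control sums of skeletal muscle, epithelial, hepatocyte and neutrophil markers. The sums do not show which cells made these transcripts, and the part of such cells was not tested. Without control replicate 4, the lowest control for both genes, the log2 fold changes were 1.16 and 0.95. With edgeR on recovered reads they were 1.16 and 0.77, and with DESeq2 1.17 and 0.78. None of these passed. The log2 ratio of *Reg3b* to *Reg3g* was -1.06 ± 0.363 in controls and -0.69 ± 0.617 in sgKrt19 tumors, a difference of 0.38 (two-sided exact permutation test, p = 0.343, adjusted p = 0.514 over 2 ratios, where the smallest p possible is 0.0571). *Extl3*, whose product is a receptor for REG3 proteins, was at 1682 ± 203 and 1445 ± 34.6 (adjusted p = 0.177, and 0.0338 with library-size scaling).

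Of the serum amyloid A genes, which lie together on chromosome 7, *Saa3* (chr7:46711998-46715700, minus strand) accounted for nearly all reads. *Saa3* is the member known for expression outside the liver. It was at 1124, 178, 633 and 522 in the sgScramble tumors and at 1514, 501 and 2331 in the sgKrt19 tumors. Replicates 5 and 8 exceeded every control, while replicate 6 lay within the control range. The means of 614 ± 391 and 1449 ± 917 gave a log2 fold change of 1.25 (SE 0.609, 95% interval -0.10 to 2.60, adjusted p = 0.134), a value that 1 library could move widely. It was 1.89 without sgKrt19 replicate 6 (adjusted p = 0.0404), 0.78 without sgKrt19 replicate 8 (adjusted p = 0.388) and 0.75 without control replicate 2 (adjusted p = 0.291).

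*Saa1* (chr7:46740497-46742980, minus strand) did not exceed 5.57 in any control and reached 10.5 in sgKrt19 replicate 8, with 3 libraries above the floor. *Saa2* (chr7:46751790-46754313, plus strand) was above the floor in 1 library, sgKrt19 replicate 8, at 4.20. These genes share 4.49% and 4.52% of their 76-base read positions with each other, so reads there cannot be assigned to one of them. *Saa3* made up 99.5% ± 0.376 of the summed reads of the 3 genes in controls and 99.7% ± 0.313 in sgKrt19 tumors, a difference of 0.182 percentage points (two-sided exact permutation test, p = 0.514). *Fpr2*, encoding a leukocyte receptor that SAA proteins engage, rose from 31.7 ± 14.9 to 144 ± 25.2 (log2 fold change 2.24, adjusted p = 0.000826).

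*Hp* (chr8:109575128-109579172, minus strand) was at 2919, 379, 675 and 1732 in the sgScramble tumors and at 670, 411 and 1440 in the sgKrt19 tumors. All 3 sgKrt19 values lay within the control range. The log2 fold change was -0.54 (SE 0.636, 95% interval -1.95 to 0.88, adjusted p = 0.533), and it ranged from -0.05 without control replicate 1 to -1.03 without control replicate 2. *Orm1* (chr4:63344560-63348163, plus strand) was far lower, at 17.6, 0.988, 6.39 and 14.8 and at 5.78, 2.00 and 10.5, so that 2 libraries lay under the floor. Its log2 fold change of -0.40 (95% interval -2.11 to 1.32, adjusted p = 0.712) turned to 0.12 without sgKrt19 replicate 6 and was -1.07 without control replicate 2 and -0.73 with edgeR. Of its read positions, 13.6% are shared with *Orm2*, which reduces the certainty of its values. *Cd163*, the macrophage receptor for complexes of haptoglobin and hemoglobin, was at 67.0 ± 31.7 and 36.1 ± 25.9 (log2 fold change -0.98, adjusted p = 0.186, and between -1.52 and -0.41 when single libraries were left out).

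*Slpi* (chr2:164354070-164389095, minus strand) was at 124, 26.7, 45.7 and 32.5 in the sgScramble tumors and at 136, 54.0 and 80.9 in the sgKrt19 tumors. Control replicate 1 lay above 2 of the sgKrt19 tumors, and the other controls lay below all 3. The log2 fold change was 0.82 (SE 0.494, 95% interval -0.27 to 1.92, adjusted p = 0.216), which became 1.28 without control replicate 1 (adjusted p = 0.0243) and 0.48 without sgKrt19 replicate 5 (adjusted p = 0.549). Among the proteases that SLPI inhibits, cathepsin G (*Ctsg*) rose from 7.04 ± 3.06 to 40.8 ± 29.2 (log2 fold change 2.22, adjusted p = 0.0118), and neutrophil elastase (*Elane*) was not detectable above the floor at this depth. Progranulin (*Grn*), which SLPI protects from cleavage, was at 12458 ± 712 and 10729 ± 924 (adjusted p = 0.155, and 0.0118 with library-size scaling).

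**Figure D2:**
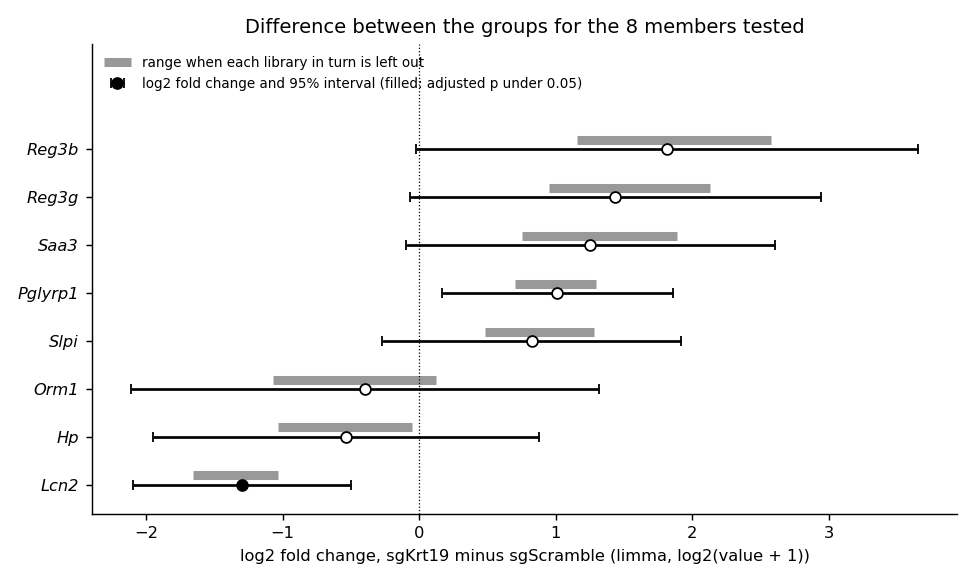
Log2 fold change of the 8 tested genes (sgKrt19 minus sgScramble) with its 95% interval, and above it a grey bar for the range when each library in turn is left out (for *Orm1*, the 4 of 7 omissions in which it still passed the filter). Only the *Lcn2* point is filled (limma adjusted p = 0.0200), and its interval lies below 0. The interval of *Pglyrp1* lies above 0, and the range of *Orm1* crosses 0.

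Levels between genes were compared per length, as reads scaled to the length of the coding transcript and to the depth of the library (RPKM). In sgScramble tumors the mean levels ran from 59.9 RPKM for *Lcn2* through 27.4 for *Saa3*, 26.3 for *Hp* and 18.8 for *Pglyrp1* to 6.59 for *Reg3g*, 3.44 for *Reg3b* and 1.60 for *Slpi*. In sgKrt19 tumors *Saa3* was first with 56.1 RPKM, followed by *Pglyrp1* with 29.3, *Lcn2* with 20.3, *Hp* with 13.6, *Reg3g* with 9.93, *Reg3b* with 6.76 and *Slpi* with 2.17. *Orm1*, *Saa1* and *Saa2* had means of at most 0.321 RPKM in either group. The control ranges of *Lcn2* (37.5 to 92.4 RPKM) and *Saa3* (7.95 to 48.5 RPKM) overlapped, as did the sgKrt19 ranges of *Saa3* (20.4 to 94.2 RPKM), *Pglyrp1* (24.6 to 32.9 RPKM) and *Lcn2* (15.4 to 29.0 RPKM). Within libraries *Lcn2* was nevertheless above *Saa3* in 4 of 4 controls, and *Saa3* and *Pglyrp1* were each above *Lcn2* in 3 of 3 sgKrt19 tumors. *Saa3* was above *Hp* in 2 of 4 controls and above *Pglyrp1* in 2 of 3 sgKrt19 tumors, so these pairs had no fixed order.

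The genes did not all vary together across the tumors, although *Hp* with *Orm1* and *Reg3b* with *Reg3g* had similar profiles. *Lcn2*, *Hp* and *Orm1* were highest in control replicate 1, *Reg3g* in control replicate 3, *Slpi* and *Pglyrp1* in sgKrt19 replicate 5, *Reg3b* in sgKrt19 replicate 6 and *Saa3* in sgKrt19 replicate 8. For each gene, the tested genes with the most similar profile were found by the root-mean-square difference between mean-centred log2 values over the 7 libraries, given as a description. *Hp* was nearest to *Orm1* (0.349 log2 units), then to *Lyve1* (0.362) and *Cd163* (0.569), both known from tissue macrophages and *Lyve1* also from lymphatic vessels. *Reg3b* and *Reg3g* were both nearest to their family member *Reg1* (0.417 and 0.271), followed by the epithelial gene *Phgr1* (0.444 and 0.406). *Slpi* was nearest to *Cstdc4* (0.243), *Pglyrp1* to *Aldh1a7* (0.223), *Lcn2* to *Lor* (0.251) and *Saa3*, with a looser fit, to the fatty acid carrier *Fabp4* (0.503).

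The fat cell hormone gene *Adipoq* followed the library order of *Hp* in part, at 157, 9.88, 9.13 and 73.3 in controls and 11.6, 12.0 and 68.3 in sgKrt19 tumors. *Hp* is also expressed in fat. Among the adipocyte markers, *Adipoq*, *Plin1*, *Retn* and *Cfd* had negative log2 fold changes (-0.59, -0.70, -0.73 and -0.29). *Fabp4*, the gene nearest to *Saa3*, and *Cidec* had positive ones (1.13 and 0.39). Summed adipocyte markers, mostly *Fabp4* and *Cidec*, ranged from 772 to 3330 in controls and from 1823 to 2889 in sgKrt19 tumors. Of these markers 0 of 6 tested were called. Their part in the *Hp* and *Orm1* values was not tested.

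**Figure D3:**
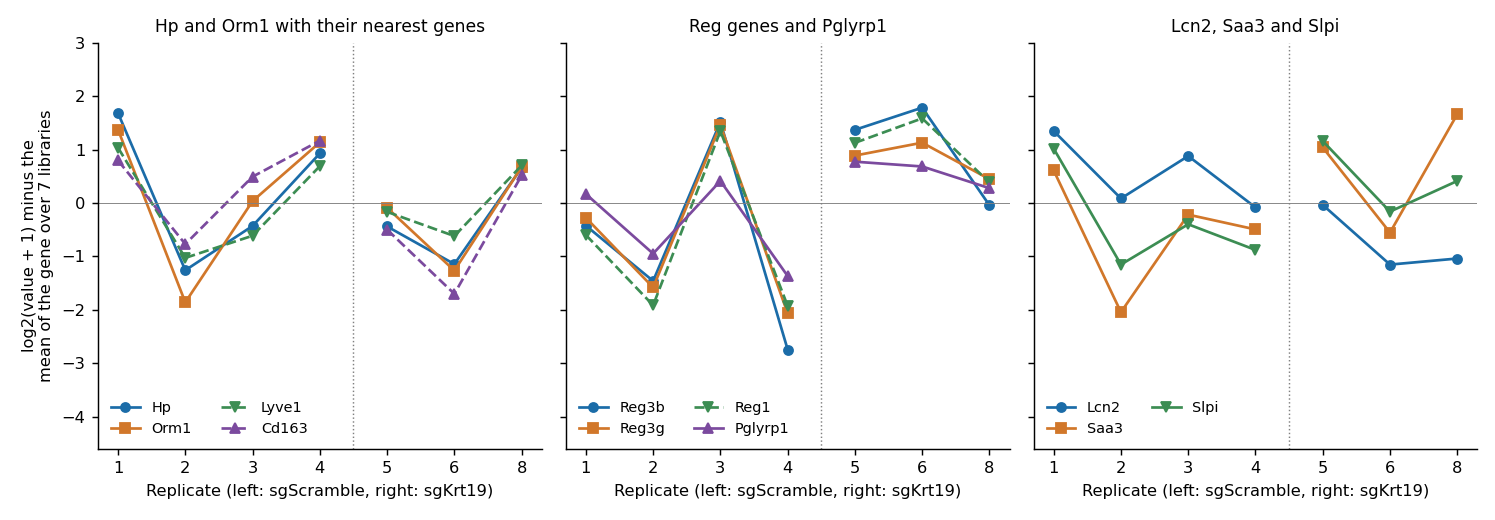
Log2(value + 1) minus the mean of the gene over the 7 libraries, for 4 sgScramble (left of the dotted line) and 3 sgKrt19 tumors, with dashed lines for genes outside the 10 and lines drawn only to guide the eye. *Hp* and *Orm1* are high in control replicates 1 and 4, and *Reg3b* and *Reg3g* are high in control replicate 3 and low in control replicates 2 and 4.

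Genes related to the 10 by pathway were counted in 5 lists, of which 98 genes were tested. Of these, 27 were higher and 14 lower in sgKrt19 tumors (41.8%, against 34.0% of all tested genes; 19 higher and 26 lower with library-size scaling), and the median log2 fold change was 0.17. Other antimicrobial and mucosal defence genes were the list with the most calls in one direction, 8 higher and 1 lower of 16 tested, with a median of 1.47. Among the higher genes, *Ltf*, *S100a8* and *S100a9* were also counted above with the neutrophil and granule markers. *Ltf* rose from values between 33.4 and 448 in the controls to values between 3300 and 3673 in the sgKrt19 tumors (log2 fold change 4.64, adjusted p = 0.000957), the mucosal trefoil factor *Tff2* from 1314 ± 1449 to 11159 ± 842 (3.82, adjusted p = 0.00360) and the polymeric immunoglobulin receptor *Pigr* from 554 ± 413 to 3052 ± 1081 (2.69, adjusted p = 0.00224). In all 3 genes, as in *Reg3b* and *Reg3g*, control replicate 3 was the highest control. The macrophage chitinase-like gene *Chil3* fell from 2299 ± 463 to 181 ± 71.8 (log2 fold change -3.71, adjusted p = 2.38e-05), while the lysozyme gene *Lyz2* (0.41, adjusted p = 0.179) and *Wfdc2*, of the same protein family as SLPI (0.63, adjusted p = 0.0706), did not pass. *Wfdc2* passed with DESeq2 (adjusted p = 0.0431) and without control replicate 1 or 3 (adjusted p = 0.0375 and 0.0492).

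Other acute phase reactants went both ways, 4 higher and 6 lower of 17 tested, with a median log2 fold change of -0.08. The metallothioneins, which bind zinc and copper, rose, *Mt2* from 8631 ± 1148 to 23103 ± 3979 (1.42, adjusted p = 0.000185) and *Mt1* from 8976 ± 1520 to 19607 ± 5467 (1.11, adjusted p = 0.00256). *Serpina3g*, a serine protease inhibitor of leukocytes, rose from 542 ± 173 to 1488 ± 257 (1.49, adjusted p = 0.000736). Lower genes included the antitrypsin genes *Serpina1a*, at 38.3 ± 17.4 in controls and under the floor in all sgKrt19 tumors (at least 11.1-fold lower, adjusted p = 0.000245), and *Serpina1b*, at 47.5 ± 22.8 and 3.56 ± 0.605 (log2 fold change -3.26, adjusted p = 0.000587). The *Serpina1* genes are near-identical copies, so reads may be split between them. Fibrinogen alpha (*Fga*), at 19.7 ± 12.7 in controls, was under the floor in all sgKrt19 tumors as well (at least 5.68-fold lower, adjusted p = 0.000929). With both genes at these bounds the median of the list stayed at -0.08.

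Most hepatocyte markers moved in the same direction as these lower liver-type reactants, with 5 of 7 tested called lower and 0 higher. *Apoa1* (log2 fold change -0.53, adjusted p = 0.143) and *Apoa2* (0.38, adjusted p = 0.238) did not pass the limma test. Summed values of the hepatocyte list, mostly *Ttr* and *Apob*, were 3092 to 5048 in controls and 1228 to 1637 in sgKrt19 tumors. *Serpina1a* belongs to this list and to that of the acute phase reactants. Albumin (*Alb*) ranged from 35.6 to 134 in controls and from 3.47 to 5.0 in sgKrt19 tumors. The 2 most abundant reactants that did not pass were ceruloplasmin (*Cp*), at 27518 ± 1812 and 21878 ± 1570 (adjusted p = 0.0626), whose groups did not overlap and which passed with DESeq2 (adjusted p = 0.00685) and library-size scaling (adjusted p = 0.00606), and the endotoxin-binding protein gene *Lbp*, at 3596 ± 784 and 3455 ± 1158 (adjusted p = 0.796).

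**Figure D4:**
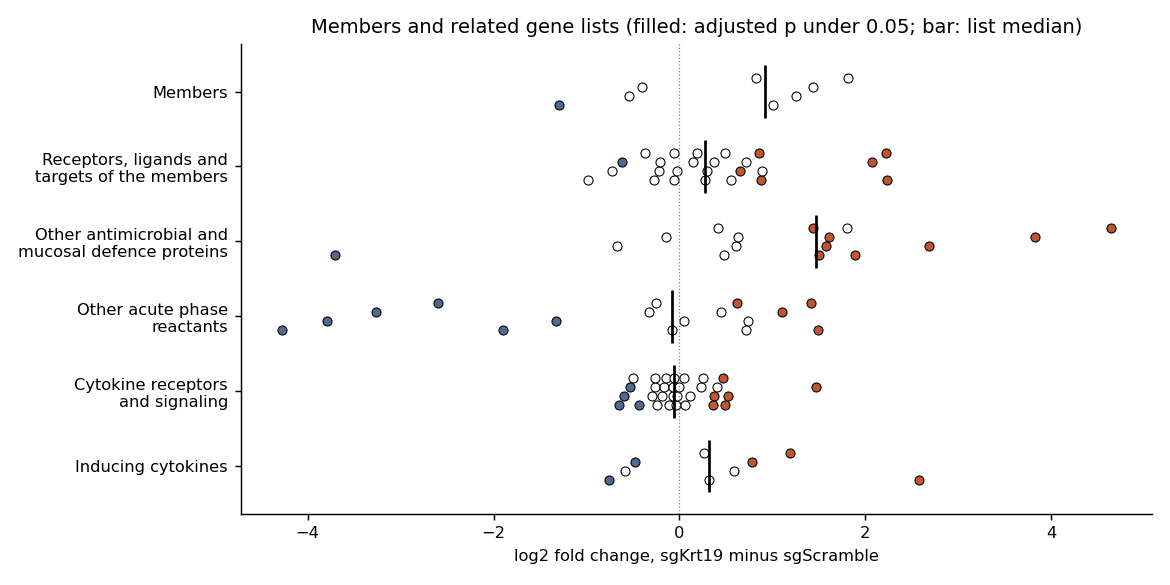
Log2 fold change (sgKrt19 minus sgScramble) of each tested gene in the 5 related lists and of the 8 tested genes of the main set, with a bar at the median of each row. Filled points passed an adjusted p of 0.05 (orange higher, blue lower), and antimicrobial genes lie mostly to the right (median 1.47) while acute phase reactants reach from -4.27 to 1.49.

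Of 9 inducing cytokines tested, 3 were higher and 2 lower, with a median log2 fold change of 0.32. *Ifng*, the interferon of T and NK cells, rose from 29.5 ± 8.10 to 178 ± 27.5 (2.57, adjusted p = 9.67e-05), and *Tnf* from 52.9 ± 8.13 to 121 ± 13.3 (1.19, adjusted p = 0.00195). *Il1b* rose from 345 ± 82.7 to 593 ± 158 (0.78, adjusted p = 0.0246). The IL-6 family members *Ctf1* (-0.76, adjusted p = 0.0250) and *Lif* (-0.47, adjusted p = 0.0399) fell. *Il6* itself was low, at 17.3 ± 3.64 and 24.3 ± 14.6, and did not pass (adjusted p = 0.570). The more abundant *Il1a*, at 142 ± 30.5 and 229 ± 124 (adjusted p = 0.157), and *Osm*, at 49.3 ± 9.93 and 58.6 ± 2.06 (adjusted p = 0.385), did not pass either. The calls of *Il1b*, *Ctf1* and *Lif* were each lost when single libraries were left out. *Il1b* was lost without control replicate 2 or sgKrt19 replicate 5 (adjusted p = 0.0545 and 0.10), *Ctf1* without any of 4 libraries and *Lif* without any of 5. Library-size scaling also lost *Il1b* (0.57, adjusted p = 0.0589). Without a variance trend *Il1b* and *Lif* were lost (adjusted p = 0.0508 and 0.0640). *Il17a* and *Il22* were not analysed here.

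Cytokine receptors and signaling genes had 6 higher and 4 lower of 31 tested, a share of 32.3%, and a median log2 fold change of -0.06. Scaled by library size alone, which lowers the median of all genes to -0.21, the split was 1 higher and 10 lower. The IL-1 decoy receptor *Il1r2* rose from 138 ± 29.6 to 378 ± 46.8 (1.46, adjusted p = 0.000394), and the oncostatin M receptor *Osmr* fell from 2191 ± 252 to 1454 ± 256 (-0.60, adjusted p = 0.0103). Among the transcription factors, *Cebpb* rose (0.52, adjusted p = 0.0383), *Nfkb1* fell (-0.53, adjusted p = 0.0145) and *Nfkbiz*, a cofactor for *Lcn2* induction, fell (-0.43, adjusted p = 0.0370). *Cebpb* was lost without any of 4 libraries, with library-size scaling (0.30, adjusted p = 0.121) and without a variance trend (adjusted p = 0.0727). *Nfkbiz* was lost without any of 4 libraries and without a variance trend (adjusted p = 0.0736), and *Nfkb1* without sgKrt19 replicate 5 (adjusted p = 0.0521). *Stat3*, at 6087 ± 240 and 5069 ± 318, had groups that did not overlap but missed the threshold (-0.26, adjusted p = 0.0613), which it passed with DESeq2 (adjusted p = 0.0229) and library-size scaling (adjusted p = 0.0117). *Cebpd* was at 1083 ± 110 and 948 ± 312 (adjusted p = 0.388), and the epithelial and liver factor *Hnf4a* at 5931 ± 513 and 5907 ± 1578 (adjusted p = 0.875). *Traf3ip2*, the adaptor of IL-17 receptors, rose (0.49, adjusted p = 0.0126, but 0.28 and adjusted p = 0.161 with library-size scaling) and *Il1rap*, the shared IL-1 receptor subunit, fell (-0.66, adjusted p = 0.0278), the latter not without any of 3 single libraries.

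Of 25 tested receptors, ligands and targets of the 10 proteins, 6 were higher and 1 lower (28.0%), with a median log2 fold change of 0.27, and 6 higher and 5 lower with library-size scaling. Besides *Lrp2*, *Fpr2* and *Ctsg*, which are given above with the proteins they act with, the lower gene was *Lrp1*, the endocytic receptor for heme carriers, which fell from 11982 ± 3500 to 7566 ± 408 (-0.62, adjusted p = 0.0391). That call was lost without any of 5 single libraries (adjusted p between 0.0724 and 0.101).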

How the data were processed

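RNA was measured in 7 subcutaneous tumors, 4 sgScramble and 3 sgKrt19, each entered as 1 replicate as the labels name it. The paper describes injection at the right flank and RNA-seq of individual tumors, but the labels do not name the mouse of each tumor. The p-values therefore measure the spread between these samples, and no batch is given. Libraries were prepared with a stranded kit, 12 PCR cycles and single 76-base reads. The authors deposited 1 table of signal values, reads per gene divided by a size factor. Whole reads were recovered for 100% of values (tolerance 0.1 read). The genome build in the submitters' processing notes is mm10, and the aligner, counter and annotation are not given in the sources used here, nor whether counting used strand. Depth was 40781199 to 44972100 reads, and the floor of 3 reads covers counting error only, since reads carry no molecular identifiers.

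Genes that reached a value of 10 in 3 or more libraries were tested with limma 3.58.1 (R 4.3.3) on log2(value + 1), with a variance trend and Benjamini-Hochberg adjustment over all tested genes, threshold 0.05. The pseudocount understates changes of low genes. Ratios used an exact permutation test over samples. Alternatives were edgeR 4.0.16 and DESeq2 1.42.0 on recovered reads, other filters, a pseudocount of 5, library-size scaling, no variance trend, a test against a fold of 1.5, and leaving out each library. Scripts were tested on simulated data. The genes and lists were chosen with earlier results of these data known. Named from each list were the 3 called genes with the largest change each way, the 2 most abundant uncalled genes and direct partners of the 10 genes. For each tested gene of the 10, the 3 nearest profiles were found, leaving out clone names, and those cited are the nearest of them. *S100a8*, *Adipoq*, *Alb*, *Krt8*, *Krt18* and other cell markers come from marker lists. Marker lists with no further account were macrophage (3 of 8 tested higher, 1 lower) and skin keratinocyte (1 of 4 higher, 1 lower). Of the epithelial markers 3 of 7 tested were higher and 0 lower, and of the acinar markers 1 was tested and not called.

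Positions, exons and transcripts are from GENCODE M21 (GRCm38), whose versions match 97.55% of the identifiers, and upstream sequences are from RefSeq. *Trem1* has 2 identical entries and was counted once. A further allele of the source mouse is not reported here.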

Additional observations from a re-analysis of the deposited data

Results flagged for a closer look

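Among 52 results searched in the 4 sgScramble tumors, 3 had one library far from the other 3, judged by its gap to the nearest library over the range of the group (Dixon's criterion at the 95% level). Chance alone gives about 1 in 20. For *Il1rap* it was replicate 4, the highest (0.883), at 275 against 178 to 189. For *Il1r2* it was replicate 1, the highest (0.854), at 182 against 119 to 128. For *Serpina3g* it was replicate 4, the highest (0.869), at 799 against 428 to 476. None of the 8 tested secreted protein genes met this criterion.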

How the results depend on the processing

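No paired analysis was possible because the groups share no replicate number. Of 738 alternative values for 50 single genes, 660 kept their direction and side of the threshold, and 20 of the 50 genes did so throughout. Both ratio results kept their direction under every alternative run. Their side of the threshold could not change, since the smallest p possible in the exact permutation test was 0.0571 with all 7 libraries. Called genes over the table ranged from 4861 to 7714 when single libraries were left out (2481 to 4103 higher, 2232 to 3611 lower). Called secreted protein genes then ranged from 0 to 4 (0 to 3 higher, 0 to 1 lower), with 3 called (2 higher) without sgScramble replicate 1 and 4 called (3 higher) without sgScramble replicate 3. Without sgKrt19 replicate 6, 0 were lower and 1 was higher, and without replicate 8, 0 were called. Related list genes ranged from 30 to 43 (20 to 29 higher, 9 to 14 lower). Scaling by library size alone moved the median log2 fold change of all genes to -0.21 and gave 2177 genes higher and 5727 lower (27.5% of calls higher, against 52.8%), with 26 list genes lower, and *Lcn2* at -1.52 (adjusted p = 0.00567) lay further down than that shift. Testing for a fold above 1.5 left 1336 genes (728 higher, 608 lower), 20 list genes (13 higher, 7 lower) and 0 of the 10. Without a variance trend 0 of the 10 were called, *Lcn2* having an adjusted p of 0.0506. With edgeR and DESeq2 *Lcn2* was at -1.35 and -1.34 (adjusted p = 0.0200 and 0.0261). Direction turned when a single library was left out for *Orm1* (range -1.07 to 0.12 over the 4 of 7 omissions in which it still passed the filter), *Cebpd* (-0.45 to 0.054), *Hnf4a* (-0.19 to 0.20), *Il6* (-0.12 to 0.77) and *Lbp* (-0.34 to 0.077), none of them called. Apart from the samples and genes that each alternative leaves out, the cause was not tested. At this depth *Saa1*, *Saa2* and most values of *Orm1* are limited by counting.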

Other observations

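Hemoglobin transcripts, the ligand genes of haptoglobin, were chosen here after their values were seen. *Hbb-bs* was at 1534, 311, 627 and 419 in the sgScramble tumors and at 2096, 249 and 1133 in the sgKrt19 tumors (log2 fold change 0.50, adjusted p = 0.594 in limma). Its highest control was replicate 1 and its lowest sgKrt19 library replicate 6, as for *Hp*. The complement gene *C3*, chosen in the same way, was at 15625 ± 2113 and 6166 ± 221 (-1.33, adjusted p = 8.76e-05), and its groups did not overlap.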
